A study of Homo sapiens with 6 samples.

Results

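Glycolysis and hypoxia genes were examined in A549 cells that were transfected to overexpress TFAM, the mitochondrial transcription factor A. The group holds 10 genes, chosen by name for their place in glucose metabolism and in the response to low oxygen: SLC2A1, HK2, PFKP, GAPDH, PGK1, ENO1, PKM, LDHA, PDK1 and VEGFA. They are 10 of the 29845 genes in the deposited tables, and all 10 were among the 16555 genes with enough reads to be tested. RNA-seq was performed on 6 libraries, 3 of control cells and 3 labelled TFAM-OE. A549 is a human lung epithelial cancer cell line. The TFAM-OE cells received a plasmid, pIRES-hrGFP-1a, carrying TFAM with a FLAG tag, and the control cells received the empty plasmid, so that both groups carried the vector and went through lipid-based transfection. The transfection was transient, and the share of cells that took up plasmid was not analysed here. The study calls the 3 libraries of a group biological replicates, while the labels do not say whether they came from separate cultures, so the p-values below measure the spread between these libraries. In a bulk library, fewer cells expressing a gene and less of its RNA per cell cannot be told apart.

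Glycolysis splits glucose into pyruvate in the cytoplasm, and lactate dehydrogenase then turns pyruvate into lactate, which leaves the cell, while pyruvate dehydrogenase sends pyruvate into the mitochondrion. Many cancer cells keep glycolysis high even where oxygen is present. When oxygen is low, the hypoxia-inducible factors accumulate and bind a short DNA core, ACGTG, near genes for glucose uptake, glycolysis, the inhibition of pyruvate dehydrogenase and the growth of blood vessels, and each of the 10 genes has a place in this programme or in the pathway it controls.

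TFAM itself was measured first, since it checks the labels. Its level was 76.0, 70.1 and 72.6 CPM (read counts of a gene scaled to the size of its library) in control replicates 1 to 3, and 71.8, 77.2 and 83.0 in TFAM-OE replicates 1 to 3. The groups overlapped, and the log2 fold change was 0.08 (SE 0.10, adjusted p = 0.623). TFAM mRNA was not higher beyond this spread in this fit, and the study's western blot of the FLAG-tagged protein was not analysed here. It passed as higher in 1 of 18 alternative analyses (adjusted p = 0.0369). That was the fit with offsets for GC content and length, added after seeing the data. The second group is therefore called the libraries labelled TFAM-OE. The libraries held 26650854 to 37321956 reads. Epithelial keratins were abundant, with KRT8 at 1624 to 1968 CPM. The epithelial markers EPCAM and CDH1 were low, at 0.336 to 1.07 and 3.76 to 8.29 CPM. Of 10 markers of leukocytes, endothelial cells and fibroblasts, 9 were in the table, with at most 15 reads in any library and sums of 12 to 28 reads per control library and 17 to 19 per library labelled TFAM-OE.

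The ACGTG form of the hypoxia response core was looked for in the 250 bases before each gene's start, in RefSeq promoter sequence of GRCh38. Both strands were searched (ACGTG, or CACGT on the opposite strand), for this form alone. Of the 9 genes with a sequence, 6 held it, and 21.7% of all 27305 genes with a sequence did so in at least 1 of their windows. A stretch of 30 bases is shown for 5 genes, because the factors are known to recognise this form of the core. In these genes it fits within the 250 bases and lies outside the gene's annotated exons. Capitals mark the core, and where a gene held several such stretches, the one nearest to its start is shown.
HK2: aatgggcgtgcgCACGTcactgatccggag
PFKP: ccacgagcgcctACGTGatgcccggcccgt
GAPDH: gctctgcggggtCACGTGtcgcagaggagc
PGK1: aaacggaagccgCACGTctcactagtaccc
LDHA: cgtgggttcccgCACGTccgccggcccccc
The stretch of HK2 lies at chr2:74834067-74834096 and that of LDHA at chr11:18394478-18394507, both outside the annotated gene. Those of PFKP (chr10:3069038-3069067), GAPDH (chr12:6535171-6535200) and PGK1 (chrX:78104053-78104082) lie in introns of longer transcripts of the same genes. All 5 stretches are printed from the plus strand, and in HK2, PGK1 and LDHA the core ACGTG lies on the opposite strand. In GAPDH the core reads the same on both strands as CACGTG, which is also the E-box bound by MYC and related factors and is present in 6.34% of all 35116 windows. Of 13 other listed genes that passed the test below and had a sequence, 6 held the core as well. A match describes the letters of the window, and binding was not measured here.

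SLC2A1 encodes GLUT1, a carrier that brings glucose into cells (chr1:42925353-42958893, minus strand). Its level was 241, 210 and 186 CPM in control replicates 1 to 3 and 165, 161 and 153 CPM in the libraries labelled TFAM-OE. Every library labelled TFAM-OE was below every control library. SLC2A1 was lower, at 0.753 times the control level (95% interval 0.636 to 0.893, log2 fold change -0.41, SE 0.11, adjusted p = 0.0494), and was the single gene of the 10 to pass the test. The call was marginal. The adjusted p was 0.201 without control replicate 1, 0.169 without control replicate 2 and 0.188 without TFAM-OE replicate 2. Over all genes, 342, 306 and 351 passed in these fits, against 1372 with all libraries. The log2 fold change of SLC2A1 there was -0.30, -0.41 and -0.41. Its call was lost in 8 of 18 alternative analyses, while the direction was the same in all 18.

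HK2, the inducible hexokinase, adds the first phosphate to glucose (chr2:74834127-74893359, plus strand). Its level was low, at 9.25, 8.96 and 10.3 CPM in control and 6.02, 8.0 and 7.09 CPM in the libraries labelled TFAM-OE. All 3 of the latter were below all 3 controls, with a fold of 0.740 (95% interval 0.588 to 0.932), and the difference did not pass the test (adjusted p = 0.102).

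PFKP is the platelet form of phosphofructokinase, which commits sugar to glycolysis (chr10:3066333-3137718, plus strand). It stood at 634, 730 and 754 CPM in control and at 866, 820 and 755 CPM in the libraries labelled TFAM-OE. The groups were barely apart, with TFAM-OE replicate 3 next to control replicate 3. The fold was 1.152 (95% interval 0.978 to 1.36, adjusted p = 0.258).

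GAPDH oxidises the triose phosphate of the pathway and is a common reference gene for RT-qPCR, also in the study (chr12:6534512-6538374, plus strand). Control libraries held 7034, 8205 and 8421 CPM, and the libraries labelled TFAM-OE held 9313, 8428 and 6816 CPM. The highest and the lowest of all 6 values were both in the TFAM-OE group, so that the groups overlapped (fold 1.04, 95% interval 0.836 to 1.29, adjusted p = 0.848).

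PGK1 makes the first ATP of the pathway (chrX:77910739-78129295, plus strand). It was at 724, 768 and 813 CPM in control and at 980, 955 and 880 CPM in the libraries labelled TFAM-OE, with no overlap. The log2 fold change of 0.29 (SE 0.10, fold 1.22, 95% interval 1.05 to 1.42) did not pass the test over all genes (adjusted p = 0.0966). It passed without TFAM-OE replicate 3 (adjusted p = 0.0269) and on log2(FPKM + 0.1) and log2(FPKM + 1) with limma (adjusted p = 0.0425 and 0.0397).

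ENO1, the main enolase, makes phosphoenolpyruvate (chr1:8861000-8879190, minus strand). Its CPM were 3531, 3877 and 3984 in control and 4634, 4160 and 3434 in the libraries labelled TFAM-OE, which overlapped (fold 1.07, 95% interval 0.880 to 1.31, adjusted p = 0.662). PKM, pyruvate kinase, performs the last step to pyruvate (chr15:72199029-72231819, minus strand). It was at 5996, 6497 and 6529 CPM in control and at 7334, 6698 and 6188 CPM in the libraries labelled TFAM-OE, again with overlap (fold 1.06, 95% interval 0.895 to 1.26, adjusted p = 0.663). In GAPDH, ENO1 and PKM alike, TFAM-OE replicate 1 was the highest of the 6 libraries, and in GAPDH and ENO1 TFAM-OE replicate 3 was the lowest.

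LDHA, the lactate dehydrogenase subunit known for making lactate, lies at chr11:18394560-18408425 on the plus strand. Its CPM were 2201, 2045 and 2267 in control and 2509, 2425 and 2414 in the libraries labelled TFAM-OE. All 3 of the latter were higher, with a fold of 1.13 (95% interval 0.971 to 1.31, adjusted p = 0.293).

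PDK1 is a kinase that switches pyruvate dehydrogenase off (chr2:172555373-172608669, plus strand). It was at 6.96, 6.53 and 5.84 CPM in control and at 5.96, 7.12 and 8.82 CPM in the libraries labelled TFAM-OE. The groups overlapped (fold 1.13, 95% interval 0.870 to 1.47, adjusted p = 0.549). VEGFA, the secreted growth factor of blood vessels, lies at chr6:43770184-43786487 on the plus strand. Its control libraries were close together, at 63.7, 61.6 and 60.5 CPM, while those labelled TFAM-OE were at 49.5, 62.2 and 78.2 CPM, on both sides of control (fold 1.02, 95% interval 0.811 to 1.29, adjusted p = 0.921).

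**Figure D1:**
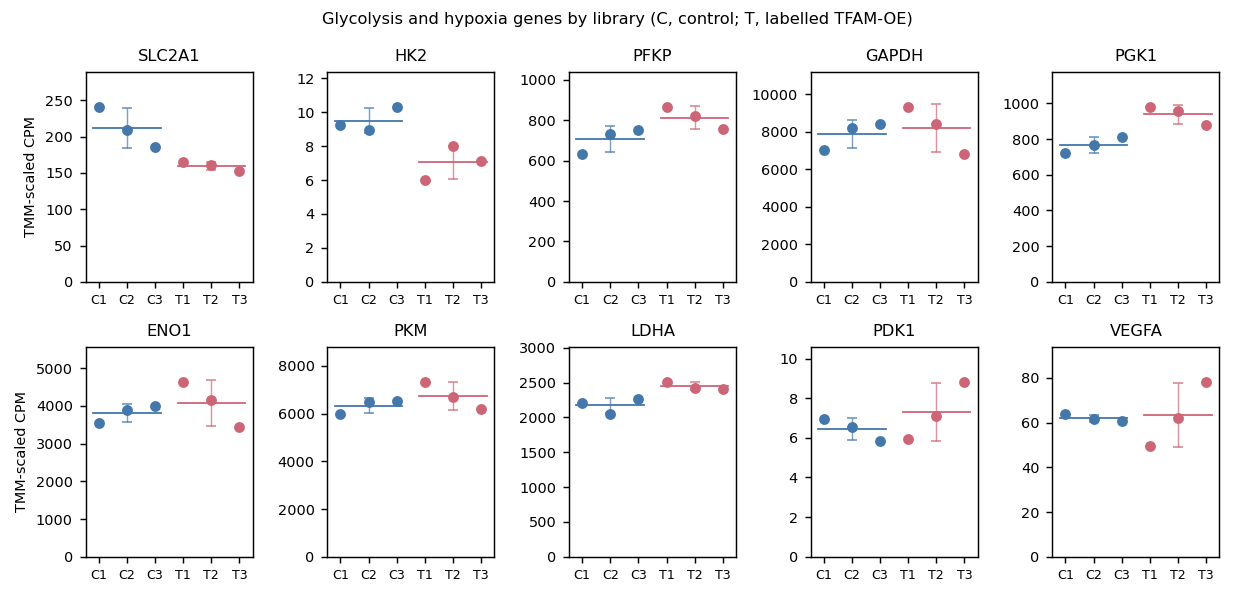
Level of each of the 10 genes in CPM (linear axes from 0) in control replicates 1 to 3 (C1 to C3, blue) and TFAM-OE replicates 1 to 3 (T1 to T3, red). Points are libraries, lines are group means and bars are 1 SD (n = 3). SLC2A1 and HK2 were lower in every library labelled TFAM-OE, PFKP, PGK1 and LDHA were higher, and the other 5 genes overlapped.

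Of the 10 genes, 1 was called at adjusted p below 0.05, against 8.29% of all genes tested. It was lower, as were 4.81% of all genes, and 0 of the 10 were called higher, against 3.48%. At an unadjusted p below 0.05 there were 3 of the 10 and 25.4% of all genes. None of the 10 both passed the test and changed by at least 2-fold, and 2.51% of all genes did. The groups did not overlap for 5 of the 10 genes, 3 higher and 2 lower, against 31.7% of all genes, 15.8% higher and 15.8% lower. The fitted log2 fold change was positive in 8 and negative in 2, with a median of 0.10 over the 10 genes and -0.01 over all genes tested. The 10 genes together took 2.12%, 2.25% and 2.26% of the reads of the control libraries and 2.46%, 2.33% and 2.17% of those labelled TFAM-OE, which overlapped.

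Levels were compared between genes in FPKM, which divides by transcript length. In control GAPDH stood at 3025 ± 210 FPKM (SD, n = 3), the 7th highest of all genes, followed by ENO1 at 1818 ± 65.7, PKM at 1635 ± 37.2 and LDHA at 625 ± 35.5. PFKP (159 ± 10.3) and PGK1 (134 ± 4.24) were next, then SLC2A1 (49.5 ± 7.86) and VEGFA (14.04 ± 0.753), and HK2 (1.37 ± 0.0850) and PDK1 (0.387 ± 0.0451) were at the low end. Each gene was above the next in all 3 control libraries, as it was in the libraries labelled TFAM-OE, except that ENO1 and PKM overlapped there.

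For 6 of the genes the share of the FPKM of their own family was computed, since sister genes can stand in for each other. HK2 made up 4.33% ± 0.369 of the sum of HK1 and HK2 in control and 3.55% ± 0.394 where TFAM-OE was the label. PFKP made up 83.6% ± 0.625 of phosphofructokinase and then 80.9% ± 0.705. PDK1 made up 6.62% ± 0.729 of the 4 pyruvate dehydrogenase kinases and then 4.72% ± 0.191. These 3 shares did not overlap between the groups. The exact two-sided permutation p was 0.1 each, the smallest that 3 against 3 can give, and 0.2 after adjustment over the 6 families. A lower share is not a lower level: HK2 itself had a fold of 0.740, but PFKP had 1.15 and PDK1 had 1.13. Their sister genes PFKL, PDK2 and PDK3 had folds of 1.53, 1.67 and 1.52. ENO1 held 98.4% of enolase in both groups and LDHA held 56.4% and 56.6% of lactate dehydrogenase (exact permutation p = 0.9 each). SLC2A1 held 94.2% and 93.5% of the sum with SLC2A3 (exact permutation p = 1), the share being lowest, at 90.8%, in TFAM-OE replicate 3.

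**Figure D2:**
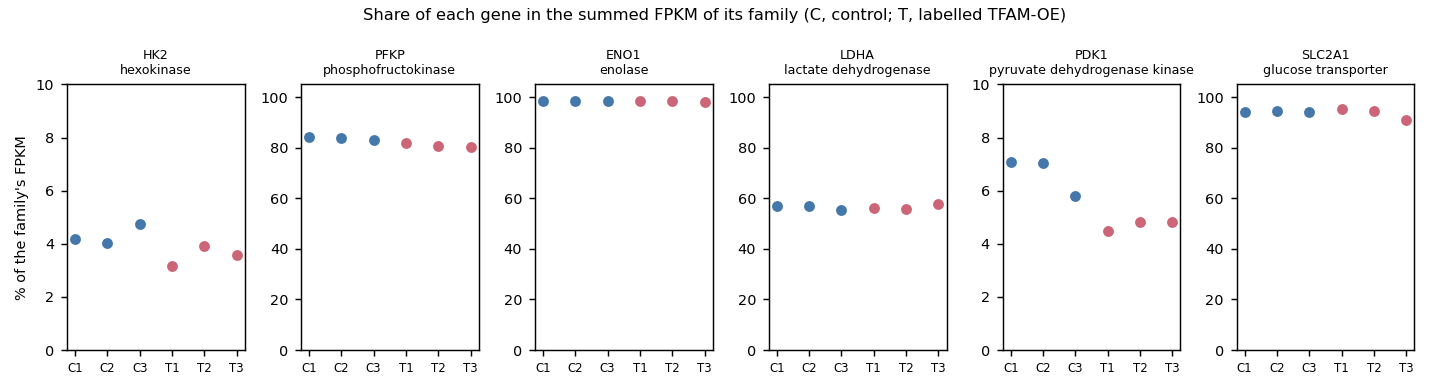
Share of HK2, PFKP, ENO1, LDHA, PDK1 and SLC2A1 in the summed FPKM of their families, in percent, in control (C1 to C3, blue) and labelled TFAM-OE libraries (T1 to T3, red). Each point is 1 library, the axes start at 0, and those of HK2 and PDK1 end at 10%. For SLC2A1 the sum holds SLC2A1 and SLC2A3 alone. The shares of HK2, PFKP and PDK1 were lower in every library labelled TFAM-OE, though the mean levels of PFKP and PDK1 themselves were not lower.

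The other genes of the pathway were read from lists, whose counts stand beside the 3.48% of all genes that rose and the 4.81% that fell. Of 19 glycolysis enzymes tested, 7 are among the 10 genes above. Of the other 12, 1 was higher and 0 were lower, and their median log2 fold change was 0.28. The enzyme that rose was PFKL, the liver form of phosphofructokinase, from 48.3, 57.6 and 65.8 CPM to 88.7, 90.7 and 82.9 CPM (log2 fold change 0.61, SE 0.12, adjusted p = 0.0165). Among 8 genes for glucose and lactate transport other than SLC2A1, 1 rose and 0 fell. The carrier that rose was SLC16A3, the lactate exporter MCT4, with a log2 fold change of 0.54 (SE 0.11, adjusted p = 0.0152). Of the 4 enzymes tested that set the level of the sugar bisphosphate that activates phosphofructokinase, 1 fell. This was PFKFB4, from 35.1, 28.7 and 25.6 CPM to 14.3, 14.9 and 13.3 CPM, a fold of 0.475 (95% interval 0.384 to 0.588, adjusted p = 0.0021).

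Among 13 genes of pyruvate dehydrogenase and its control other than PDK1, 2 rose and 0 fell. Both encode sister kinases of PDK1. PDK2 went from 8.15, 10.3 and 8.75 CPM to 14.9, 14.7 and 15.7 CPM (log2 fold change 0.74, SE 0.13, adjusted p = 0.0110), and PDK3 had a log2 fold change of 0.61 (SE 0.16, adjusted p = 0.0494). PDK4 was at 3.16 to 4.34 CPM in control and 3.42 to 10.9 CPM in the libraries labelled TFAM-OE, which overlapped. Of 13 regulators upstream of glycolysis, 0 rose and 1 fell. It was TXNIP, which restrains glucose uptake, from 7.32, 3.36 and 2.51 CPM to 0.533, 0.440 and 0.167 CPM (log2 fold change -3.50, SE 0.48, adjusted p = 0.0032), on 5 to 17 reads in each library labelled TFAM-OE. Its libraries in control differed, replicate 1 being the highest.

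**Figure D3:**
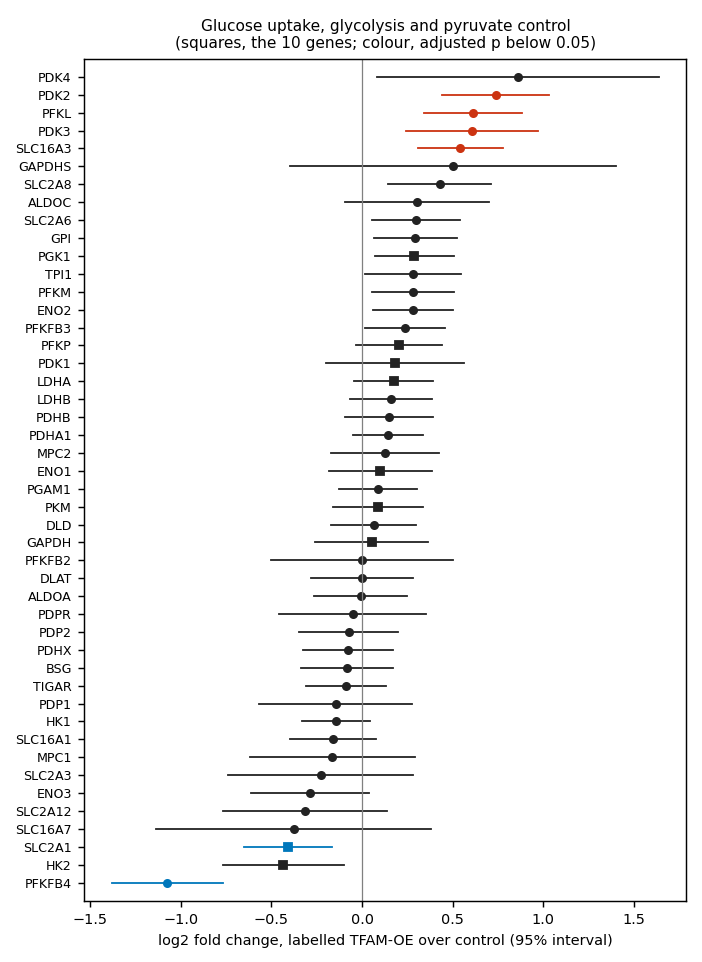
Log2 fold change (labelled TFAM-OE over control) with its 95% interval for genes of glucose uptake, glycolysis and pyruvate control. Squares are members of the 10 genes, circles are other listed genes, red and blue mark genes higher and lower at adjusted p below 0.05 and black the rest. PFKFB4 and SLC2A1 were lower, and PDK2, PDK3, PFKL and SLC16A3 were higher.

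The oxygen sensing list held 12 tested genes, of which 0 rose and 1 fell. The gene that fell was CITED2, which competes with the hypoxia-inducible factors for their coactivator, from 54.9, 45.4 and 38.6 CPM to 26.74, 23.6 and 24.2 CPM (log2 fold change -0.90, SE 0.14, adjusted p = 0.0054). The factors themselves, named here after their values were seen, did not pass: HIF1A had a log2 fold change of -0.11 (adjusted p = 0.734) and EPAS1 one of -0.17 (adjusted p = 0.452), and both overlapped between groups.

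Of 36 other hypoxia-inducible genes tested, 2 rose, 4 fell and 30 did not pass, and the median log2 fold change was -0.02. The 2 that rose were SLC16A3 and HILPDA, a lipid droplet protein, which went from 12.3, 14.7 and 14.4 CPM to 20.7, 24.4 and 24.1 CPM (log2 fold change 0.74, SE 0.13, adjusted p = 0.0087). Those that fell included PFKFB4, STC2 and ADM. STC2, a secreted glycoprotein, went from 347, 292 and 239 CPM to 152, 154 and 155 CPM (log2 fold change -0.93, SE 0.13, adjusted p = 0.0033), and ADM, a vasodilator peptide, had a log2 fold change of -0.52 (SE 0.13, adjusted p = 0.0354). These 6 of 36 stand beside the 8.29% of all genes that passed the same test.

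**Figure D4:**
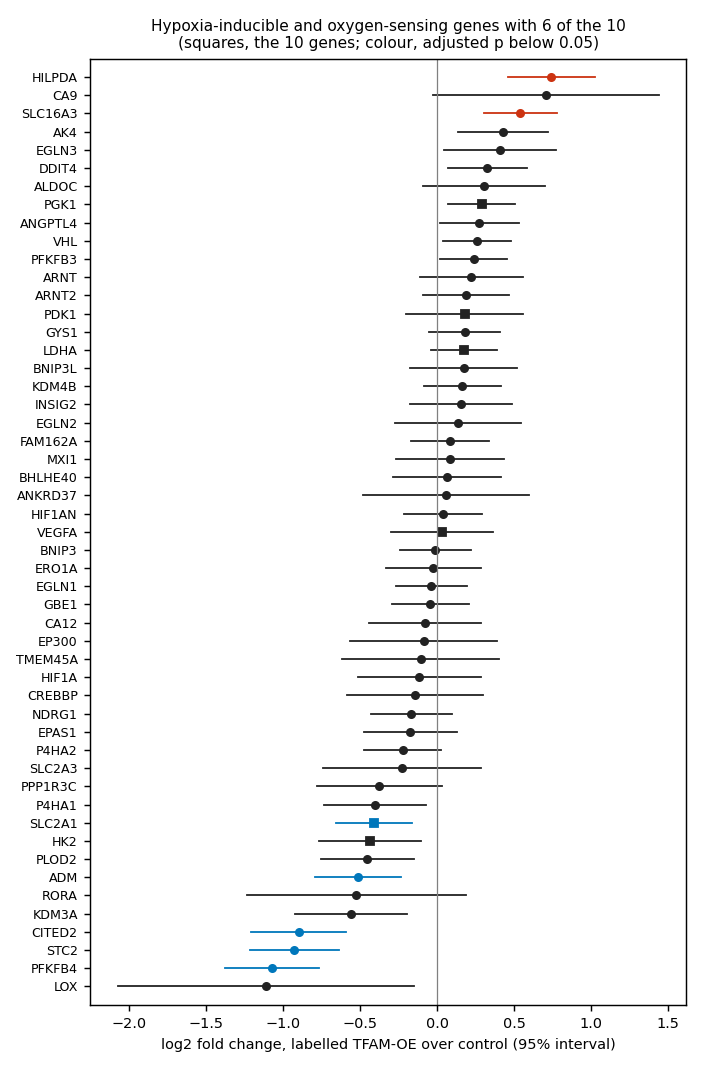
Log2 fold change (labelled TFAM-OE over control) with its 95% interval for hypoxia-inducible and oxygen sensing genes, with squares for 6 of the 10 genes, circles for the other genes reported and colour for adjusted p below 0.05. STC2, PFKFB4, ADM, CITED2 and SLC2A1 were lower and HILPDA and SLC16A3 were higher.

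Calls in these lists differed in how far they held. In all 18 alternative analyses PFKFB4, STC2 and CITED2 passed, as did TXNIP in all 17 in which it was tested, though its log2 fold change there ranged from -3.79 to -0.94, the smallest being on log2(FPKM + 1), and was -2.91 without control replicate 1. PFKL, SLC16A3, PDK2, PDK3, HILPDA and ADM each lost their call without control replicate 1 and without TFAM-OE replicate 2, with adjusted p up to 0.0922, 0.0854, 0.0626, 0.183, 0.0668 and 0.164 in that order. Without control replicate 2, PFKL, SLC16A3, PDK3 and ADM lost theirs too, and ADM also without control replicate 3. PDK3 failed also with scaling by library size alone, with the FPKM filter and on both log2 FPKM scales. Over all genes, 342 passed without control replicate 1, 306 without control replicate 2 and 351 without TFAM-OE replicate 2, against 1372 with all libraries.

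GC content moved with the values. In the libraries labelled TFAM-OE, the log2 ratio of replicate 3 over replicate 1 had a median of 0.25 in the lowest of 5 GC classes of equal size and of -0.25 in the highest. Over the 10 genes it was 0.66 for VEGFA, 0.57 for PDK1 and 0.24 for HK2, and negative for the others, down to -0.43 for ENO1 and -0.45 for GAPDH. Not all of them followed their class. VEGFA and HK2 lie in the middle class, whose median was -0.007. PGK1 (-0.16) and LDHA (-0.06) lie in the second lowest, whose median was 0.13. The remaining genes had the sign of their class median. Between the groups, the median log2 fold change went from -0.13 in the lowest class to 0.11 in the highest. PGK1, LDHA and PDK1 lie in the 2 lowest classes, at 42.8%, 41.8% and 39.5% GC, and had positive log2 fold changes against negative medians there.

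With GC and length offsets in the fit, an alternative added after seeing the data, 4 of the 10 genes passed, against 17.7% of all genes in that fit. SLC2A1 fell (log2 fold change -0.44, adjusted p = 0.0131), while PGK1 (0.41, adjusted p = 0.0399), LDHA (0.23, adjusted p = 0.0421) and PDK1 (0.43, adjusted p = 0.0319) rose. In that fit GAPDH was at -0.01 and VEGFA at 0.02. What GC content contributes to the differences between the groups was not tested.

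**Figure D5:**
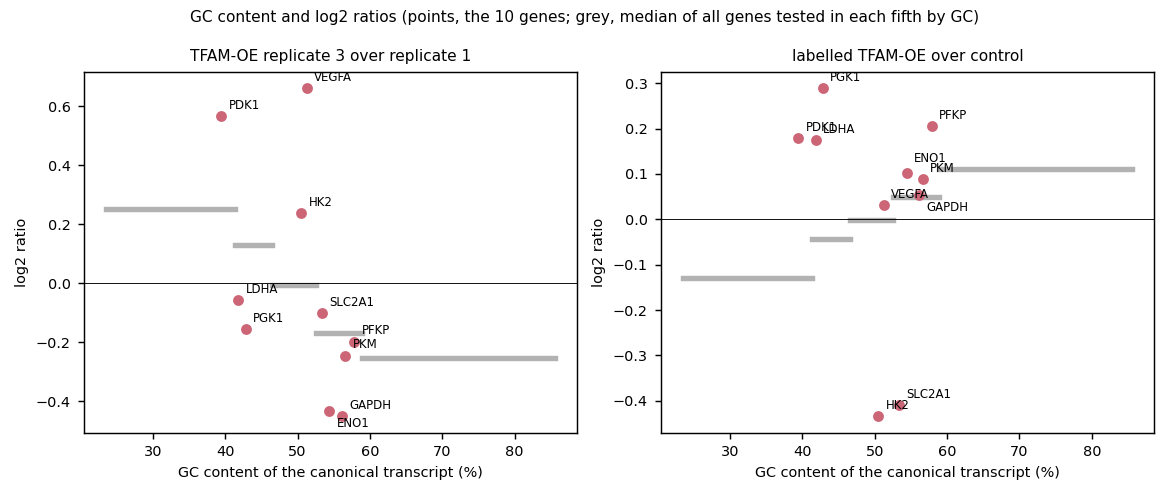
Log2 ratio against the GC content of the canonical transcript in percent, for TFAM-OE replicate 3 over replicate 1 (left) and labelled TFAM-OE over control (right). Points are the 10 genes and grey bars span each of 5 GC classes of all genes tested, at the median of the class. The medians fell with GC on the left, from 0.25 to -0.25, and rose on the right, from -0.13 to 0.11.

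As a reference gene GAPDH was set beside 15 others in common use. Its coefficient of variation over the 6 libraries was 11.7%, the 6th lowest of the 16, and TFAM-OE replicate 1 was 1.37 times replicate 3. YWHAZ varied least, at 3.73%, and B2M most, at 46.8%. Among the 16, HPRT1 rose (log2 fold change 0.36, adjusted p = 0.0426) and TFRC (-0.53, adjusted p = 0.0351) and B2M (-1.25, adjusted p = 0.0012) fell. Of these calls only that of B2M held in all 18 alternatives. HPRT1 and TFRC each lost theirs without control replicate 1, control replicate 2 or TFAM-OE replicate 2, with adjusted p up to 0.173 and 0.170, and HPRT1 also without control replicate 3 or TFAM-OE replicate 1. TFRC failed too with scaling by library size alone and on both log2 FPKM scales.

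Copies of these genes elsewhere in the genome took few of the reads. The table held 7 pseudogene rows of GAPDH, 5 of LDHA, 2 of PKM and 1 of ENO1, of which those of GAPDH summed to 21 to 45 reads per library and those of LDHA to 13 to 28, where the genes themselves held at least 204677 and 54786. The antisense genes SLC2A1-AS1 and ENO1-AS1 had 8 to 22 reads per library. Whether counting used the strand was not stated, and reads of a gene and of its antisense partner may not be separated.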

How the data were processed

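Poly(A) RNA-seq libraries of A549 cells were compared. The authors removed adaptors and low-quality bases, aligned reads to GRCh38 with TopHat2 and kept uniquely mapped reads; the counting program and annotation were not stated. The deposited tables hold read counts per gene and, made from them by the authors, FPKM. The 10 genes, the lists and the tests were chosen with earlier results of these data known.

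Counts were fitted with edgeR 4.0.16 in R 4.3.3 (TMM scaling, filterByExpr with a minimum count of 10, quasi-likelihood test, Benjamini-Hochberg adjustment over 16555 genes, threshold 0.05). The standard error is the log2 fold change divided by the square root of F, and 95% intervals use the same fit. Alternatives were run with DESeq2 1.42.0, limma 3.58.1 and other scalings and filters, on log2(FPKM + 0.1) and log2(FPKM + 1), and without each library. Shares of families were compared by exact permutation tests (scipy 1.17.1). Depth was 26650854 to 37321956 reads; errors are SD over 3 libraries. GC content and length came from GENCODE 44 canonical transcripts, found for 98.7% of the genes tested. Scripts were tested on simulated data, where part of the known differences was missed at this sample size, and the mark set for their recovery was lowered after a first run fell short of it, so a gene that did not pass is not shown to be unchanged.

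Genes named are the 10, TFAM, sister genes of 6 families, the reference genes by count with their extremes, and up to 6 genes per list and direction with the smallest p among those past the threshold. Some listed genes that would be named by this rule are not reported here.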

Additional observations from a re-analysis of the deposited data

How the results depend on the processing

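The number of the 10 genes past the threshold was 1 as reported. It was 0 with upper-quartile scaling, library size alone, limma-voom or the replicate block. It was 2 on log2(FPKM + 0.1) and 4 with GC and length offsets (chosen after seeing the data). Leaving out each library gave 0 to 2. On log2(FPKM + 1) with limma 1 gene passed, but it was PGK1, which rose (adjusted p = 0.0397). SLC2A1 fell short of the threshold there (adjusted p = 0.0501). All genes past it numbered 1372, against 2519 with every gene that had a read, 2216 by the edgeR exact test, 359 with the replicate block, 2888 with the offsets and 306 to 3214 without single libraries, lowest without control replicate 2 and highest without TFAM-OE replicate 3. Glycolysis enzymes numbered 1, against 2 on either log2 FPKM scale, 0 with the block, 6 with the offsets and 0 to 4 without single libraries. Hypoxia-inducible genes numbered 6, against 11 with every gene that had a read and 3 to 10 without single libraries. Signs of the log2 fold change turned for GAPDH (0.05), to -0.014 with the offsets and within -0.047 to 0.177 without single libraries (below 0 without control replicate 1 or TFAM-OE replicate 1), and for VEGFA (0.03), to -0.017 and -0.014 on log2(FPKM + 0.1) and log2(FPKM + 1) and within -0.143 to 0.182 without single libraries (below 0 without TFAM-OE replicate 3). Of the shares, ENO1 (0.02 percentage points) turned to -0.103 on counts. Without single libraries the shares ranged from -0.058 to 0.149 for ENO1 (below 0 without control replicate 1, TFAM-OE replicate 1 or TFAM-OE replicate 2), from -0.377 to 0.538 for LDHA (0.207, below 0 without control replicate 3 or TFAM-OE replicate 3) and from -1.67 to 0.613 for SLC2A1 (-0.749, above 0 without TFAM-OE replicate 3). The PDK1 share differed by -6.18 points on counts, which are not divided by length, and by -1.91 on FPKM. The causes of the other changes were not tested. Same-numbered libraries did not deviate together, with correlations of -0.22, 0.01 and -0.27 between their deviations from the group means. These deviations are taken within groups of 3 libraries and cannot exclude a pairing, which the labels do not state. With the block the calls of SLC2A1 (adjusted p = 0.141), PFKL, SLC16A3, PDK2, PDK3, PCK2, PC, ADM, PGF, FLT4, HPRT1 and TFRC were lost. PDK1 was below the filter of FPKM above 1.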

Other observations

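The making of glucose was read as well. Of 4 genes tested for it and for the carboxylation of pyruvate, 3 rose and 0 fell, where 3.48% of all genes rose and 4.81% fell. SLC37A4, the carrier of glucose phosphate into the endoplasmic reticulum, went from 4.94, 5.82 and 8.18 CPM to 18.1, 17.8 and 20.1 CPM (log2 fold change 1.56, SE 0.18, adjusted p = 0.0013), and passed in all 18 alternatives. PCK2, the mitochondrial phosphoenolpyruvate carboxykinase, had a log2 fold change of 0.58 (SE 0.11, adjusted p = 0.0135) and PC, pyruvate carboxylase, one of 0.41 (SE 0.10, adjusted p = 0.0381). PCK2 and PC lost their calls without control replicate 1 and without TFAM-OE replicate 2, with adjusted p up to 0.0736 and 0.163, PC also without control replicate 2 or control replicate 3, with scaling by library size alone and on both log2 FPKM scales.

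Of 7 genes of the VEGF family and its receptors other than VEGFA, 1 rose and 1 fell. FLT4, a receptor of lymphatic vessels, had a log2 fold change of 0.70 (SE 0.14, adjusted p = 0.0194), and PGF, placental growth factor, one of -0.89 (SE 0.20, adjusted p = 0.0285). Both lost their call without control replicate 1 or control replicate 2, with adjusted p up to 0.106 and 0.136, and FLT4 also without TFAM-OE replicate 2 and on log2(FPKM + 0.1).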
